A study of Mus musculus with 8 samples.

Results

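The mRNA levels of 10 nuclear genes that control the number and shape of mitochondria were examined in the kidneys of 8 diabetic mice. The genes were the biogenesis regulators Ppargc1a, Ppargc1b, Nrf1 and Tfam, the fusion genes Mfn1, Mfn2 and Opa1, and the fission genes Dnm1l, Fis1 and Mff. They were taken by symbol as a functional group, with earlier results of these data known, and the rule set no condition on their measured values. All 10 were found among the 55401 genes of the deposited table. One poly(A) RNA-seq library per mouse was made from kidney tissue, 4 from mice given rFGF4, a recombinant form of human fibroblast growth factor 4, and 4 from the model group without rFGF4. The sample labels place the model group in db/db mice, which lack a working leptin receptor and develop type 2 diabetes, and give the treated group no genotype of its own. The series' design text describes both groups as a db/db model of diabetic kidney disease, and the column headings of the model group read db. The paper's text instead names streptozotocin-induced diabetes with PBS vehicle for its sequencing experiment. These accounts conflict, and the expression values were not used to decide between them. The study used male mice. The labels give no age, strain, dose or time for the sequenced animals. The groups are called rFGF4 and db/db here, as labelled. The mouse numbers in the labels are 1, 2, 3 and 5 for rFGF4 and 2, 3, 4 and 5 for db/db. There was no group of mice without diabetes, so the levels cannot be set against those of a healthy kidney.

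Mitochondria are built from both nuclear and mitochondrial genes. PGC-1α and PGC-1β, encoded by Ppargc1a and Ppargc1b, are coactivators that do not bind DNA themselves and work through factors such as NRF1 and the estrogen-related receptors, and NRF1 in turn activates Tfam, whose product packages mitochondrial DNA and starts its transcription. The mitochondrial network is also remodelled continually: the GTPases MFN1 and MFN2 join outer membranes, OPA1 joins inner membranes and shapes the cristae, and the GTPase DRP1, encoded by Dnm1l, divides mitochondria after it is recruited to the outer membrane by adaptors such as MFF. In the kidney, the proximal tubule is especially rich in mitochondria because its reabsorption of solutes depends on ATP. In the deposited gene ontology annotation, 6 of the 10 genes carried the term mitochondrial outer membrane and 4 the term GTPase activity.

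No difference between rFGF4 and db/db kidneys was detected in any of the 10 genes. At an unadjusted p under 0.05, 0 of the 10 were called, while 4.62% of the 15150 genes tested were, and the groups overlapped in all 10, while they did not overlap in 3.33% of all genes tested. The 700 genes behind the 4.62% became 431 without rFGF4 mouse 2, 1430 without rFGF4 mouse 5 and 1817 with array weights, and the count among the 10 remained 0 in each case. After Benjamini-Hochberg adjustment in limma over all genes tested, 0 genes of the whole table passed, with 700 at an unadjusted p under 0.05 in the same fit, and the smallest adjusted p among the 10 was 0.92. In each direction, 3.56% of all genes tested were called as higher and 1.06% as lower. The study's own threshold, which adds a minimum change of 1.5-fold to the unadjusted p, was passed by 0 of the 10 genes and by 1.52% of all genes tested. The log2 fold change, calculated as rFGF4 minus db/db on log2(FPKM + 1), was above 0 for 6 genes and below 0 for 4, with a median of 0.0151, but for 2 and 8 genes after scaling of the libraries to their median ratio and for 8 and 2 genes when the mitochondrial genome was left out of the sums. Over all genes tested, 67.1% were above 0 and 32.9% below 0, and the median was 0.0855, while 52.9% were above 0 after median-ratio scaling and 77.8% without the mitochondrial genome. The 95% intervals of 9 genes lay within a 1.5-fold change of FPKM + 1 in either direction (0.585 in log2), and the lower bound of Ppargc1a passed it. For genes near 1 FPKM the added 1 shrinks change and interval, so this is no bound on FPKM itself. With a pseudocount of 0.1, the standard error rose from 0.208 to 0.391 for Ppargc1b and from 0.149 to 0.292 for Nrf1. For 9 of the 10 genes, the difference between group means in FPKM was smaller than the SD within groups.

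**Figure D1:**
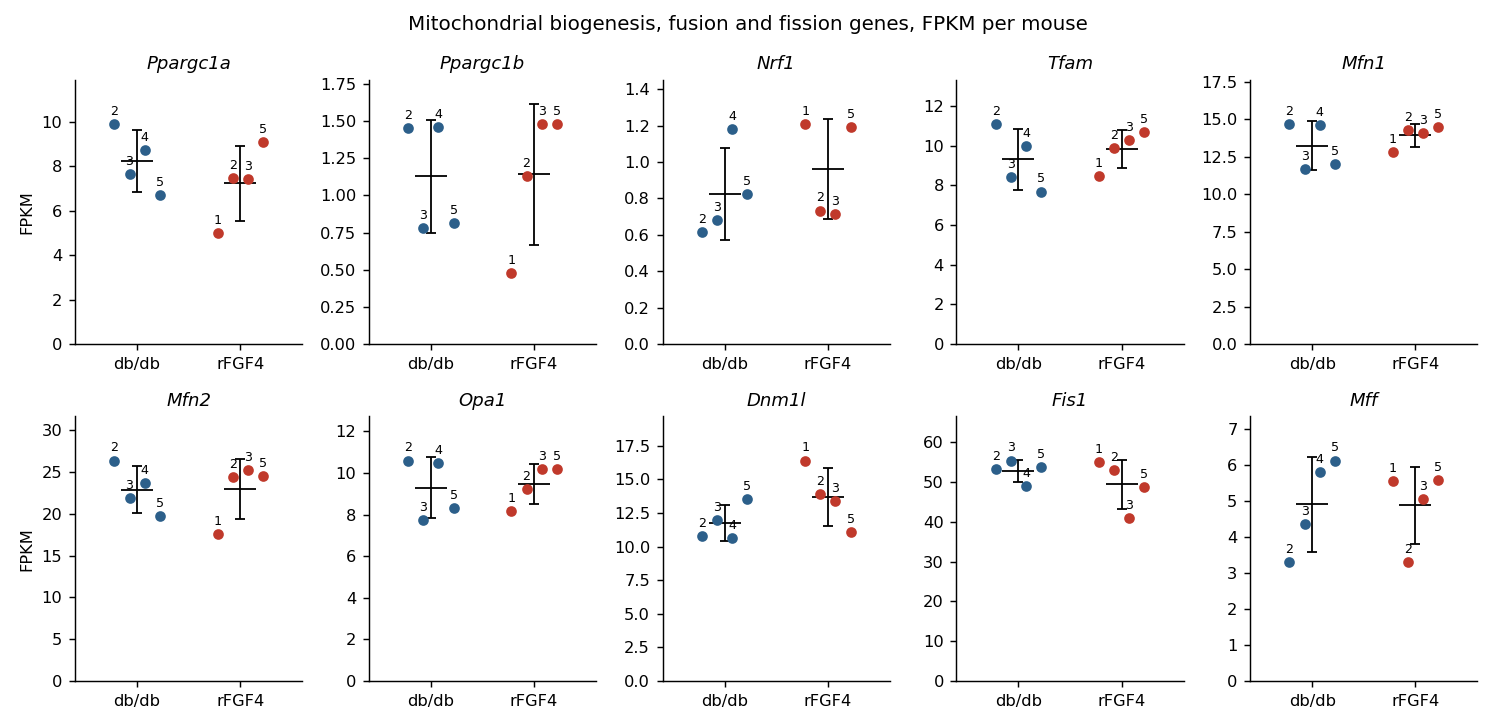
Expression of the 10 genes, in FPKM (vertical axes, each starting at 0), for each of the 4 db/db mice (blue) and 4 rFGF4 mice (red), with the mouse number beside each point and bars for the mean and SD of each group. The groups overlap in every panel, and rFGF4 mouse 1 has the lowest value of Ppargc1a, Ppargc1b and Mfn2 and the highest of Dnm1l.

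The identity of the tissue and the comparability of the libraries were checked first. FPKM, the count of fragments relative to exon length and to all mapped reads, summed to between 389404 and 552600 per library, the table holds no read counts, and the depth behind each value is therefore unknown. Markers of kidney epithelium were present in every library, with 12 proximal tubule markers summing to between 1570 and 9560 FPKM, whereas 6 adipocyte markers summed to at most 0.67 FPKM, although the extraction protocol in the labels speaks of an adipose type. The libraries differed more between mice than between groups: principal component 1 covered 54.4% of the variance and placed rFGF4 mouse 1 at -64.6 and db/db mouse 5 at -60.1, away from the other 6 mice. In those 2 mice macrophage markers were highest, at 1270 and 1800 FPKM summed over 7 genes, against 46.8 to 458 in the others. Lymphoid markers, mainly the immunoglobulin gene Igkc, reached 22900 FPKM in db/db mouse 5 and lay between 27.0 and 2730 in the other mice. Mitochondrially encoded transcripts took 19% to 38.4% of the summed FPKM, and since FPKM is relative to all mapped reads, this share enters the values of every other gene. The 5 podocyte markers summed to 64.6 to 90.5 FPKM in rFGF4 mice and 46.0 to 84.8 FPKM in db/db mice, with all 5 above 0 in log2 fold change (median 0.255), beside 67.1% of all genes, and 1 called, beside 4.62% of all genes: Synpo, at 3.93 ± 1.79 against 1.58 ± 0.475 FPKM (SD, n = 4 each, limma unadjusted p = 0.0195, adjusted p = 0.918). In whole tissue, fewer cells of a type and less RNA per cell cannot be told apart.

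Among the biogenesis regulators, Ppargc1a (chr5:51454250-51567726, minus strand, in GENCODE M21 on GRCm38, as for all genes here) was the more abundant coactivator. Its FPKM was 5.0, 7.48, 7.44 and 9.09 in rFGF4 mice 1, 2, 3 and 5, and 9.92, 7.67, 8.72 and 6.70 in db/db mice 2, 3, 4 and 5. The highest value came from db/db mouse 2 and the lowest from rFGF4 mouse 1, and 3 of the 4 rFGF4 mice lay within the range of the db/db mice. The means were 7.25 ± 1.69 FPKM (SD, n = 4) and 8.25 ± 1.38 FPKM (SD, n = 4). Its log2 fold change was -0.18 with a standard error of 0.186 and a 95% interval from -0.603 to 0.248 (limma, unadjusted p = 0.367, exact two-sided permutation p = 0.457). It was the most negative of the 10, but without rFGF4 mouse 1 it was -0.032, nearer to 0 than Fis1 at -0.15 and Mff at -0.059. With 4 mice against 4, the smallest p that this permutation test can give is 0.0286, and p-values here measure the spread between these mice only.

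Ppargc1b (chr18:61298136-61400431, minus strand), the second coactivator, was expressed at a low level, and rFGF4 mouse 1 lay under the 0.5 FPKM that served as the filter on low values. It was measured at 0.476, 1.13, 1.48 and 1.48 FPKM in the rFGF4 mice and at 1.45, 0.778, 1.46 and 0.817 FPKM in the db/db mice. Each group held both low and high mice, and the range of 3.12-fold between the lowest and the highest mouse was the widest of the 10 genes. The group means were nearly equal at 1.14 ± 0.473 and 1.13 ± 0.381 FPKM (SD, n = 4 each), and the log2 fold change was -0.0040 (95% interval -0.48 to 0.472, limma unadjusted p = 0.985).

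Nrf1 (chr6:30047988-30153458, plus strand) here is nuclear respiratory factor 1, not the stress-response factor that shares the name. Its values of 1.21, 0.734, 0.714 and 1.19 FPKM in the rFGF4 mice and 0.614, 0.682, 1.18 and 0.827 FPKM in the db/db mice were the lowest of the 10 genes on average. rFGF4 mice 1 and 5 and db/db mouse 4 were near 1.2 FPKM, and the other mice were lower. This gave a log2 fold change of 0.10 (95% interval -0.237 to 0.445, limma unadjusted p = 0.504, exact permutation p = 0.429).

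Tfam (chr10:71225464-71238280, minus strand), the packaging and transcription factor of mitochondrial DNA, was 8.48, 9.87, 10.3 and 10.7 FPKM in the rFGF4 mice and 11.1, 8.44, 10.0 and 7.69 FPKM in the db/db mice. All 4 rFGF4 values fell within the db/db range, whose ends were db/db mice 2 and 5. With a log2 fold change of 0.08, Tfam differed by less than its spread within groups (95% interval -0.239 to 0.399, limma unadjusted p = 0.581, exact permutation p = 0.60). At 12.7%, its coefficient of variation over the 8 mice was less than that of most genes, for which the median was 27.1%. Of the 10 genes, 8 were under that median, and the exceptions were Ppargc1b at 35.1% and Nrf1 at 28.7%.

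The log2 fold changes of the fusion genes lay between -0.0040 and 0.075. Mfn1 (chr3:32529465-32579239, plus strand) was 12.8, 14.3, 14.1 and 14.5 FPKM in the rFGF4 mice and 14.7, 11.7, 14.6 and 12 FPKM in the db/db mice. It had the smallest spread of the 10 genes, 9.14% over all mice, and a log2 fold change of 0.075 (95% interval -0.192 to 0.342, limma unadjusted p = 0.537). The db/db mice formed a higher pair, mice 2 and 4, and a lower pair, mice 3 and 5, and the rFGF4 mice lay between the ends of these pairs.

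Mfn2 (chr4:147873599-147904704, minus strand), which also tethers mitochondria to the endoplasmic reticulum, was 17.6, 24.4, 25.3 and 24.6 FPKM in the rFGF4 mice and 26.4, 21.9, 23.7 and 19.7 FPKM in the db/db mice. rFGF4 mouse 1 stood well below the other 3 mice of its group. The means were 23.0 ± 3.60 and 22.9 ± 2.83 FPKM (SD, n = 4 each), with a log2 fold change of -0.0040 (95% interval -0.349 to 0.341, limma unadjusted p = 0.979). Mfn2 exceeded Mfn1 in every mouse, and the ratio of Mfn1 to Mfn2 in FPKM was 0.533 to 0.615 in 7 mice and 0.73 in rFGF4 mouse 1.

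Opa1 (chr16:29579334-29654884, plus strand), the inner-membrane GTPase, was 8.18, 9.23, 10.2 and 10.2 FPKM in the rFGF4 mice and 10.6, 7.75, 10.5 and 8.33 FPKM in the db/db mice. As for Mfn1, db/db mice 2 and 4 were the highest of all and db/db mouse 3 the lowest. Opa1 had a log2 fold change of 0.029 (95% interval -0.287 to 0.345, limma unadjusted p = 0.839, exact permutation p = 0.857).

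Of the fission genes, Dnm1l (chr16:16312230-16358959, minus strand) had the smallest p of the 10. Its values were 16.4, 13.9, 13.4 and 11.1 FPKM in the rFGF4 mice and 10.8, 12, 10.6 and 13.5 FPKM in the db/db mice. rFGF4 mouse 1 was the highest, 2 of the 4 rFGF4 mice lay above all db/db mice, and rFGF4 mouse 5 lay among the low db/db mice. The means were 13.7 ± 2.19 and 11.7 ± 1.34 FPKM (SD, n = 4 each), the log2 fold change was 0.20 with a standard error of 0.142, and the 95% interval ran from -0.123 to 0.526 (limma unadjusted p = 0.191, exact permutation p = 0.171). Over 17 alternative settings the unadjusted p in limma ranged from 0.0559 to 0.72. It was the gene whose difference in mean FPKM, 1.97, was larger than the SD within groups, 1.81. Exons of Dnm1l overlap those of Gm49521 on the other strand, and the strandedness of the libraries is not given in the sources used here, so reads of the pair may not be separable.

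Fis1 (chr5:136953275-136966234, plus strand), encoding a small outer-membrane protein, was the most abundant of the 10 at 55.0, 53.0, 41.0 and 48.8 FPKM in the rFGF4 mice and 53.2, 55.4, 49.0 and 53.8 FPKM in the db/db mice. The 2 lowest values both came from rFGF4 mice, 3 and 5, while rFGF4 mouse 1 was near the top. Fis1 had a log2 fold change of -0.10 (95% interval -0.38 to 0.178, limma unadjusted p = 0.431, exact permutation p = 0.343).

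Mff (chr1:82724890-82752394, plus strand), encoding the adaptor that recruits DRP1, was 5.56, 3.30, 5.05 and 5.58 FPKM in the rFGF4 mice and 3.31, 4.36, 5.81 and 6.12 FPKM in the db/db mice. Both groups had a mouse near 3.3 FPKM, mouse 2 in each case, and the others reached 4.36 to 6.12 FPKM. The log2 fold change was 0.0013 (95% interval -0.484 to 0.486, limma unadjusted p = 0.995), with an exact permutation p of 1. Exons of Mff overlap C430014B12Rik on the other strand, with the same limit as for Dnm1l.

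**Figure D2:**
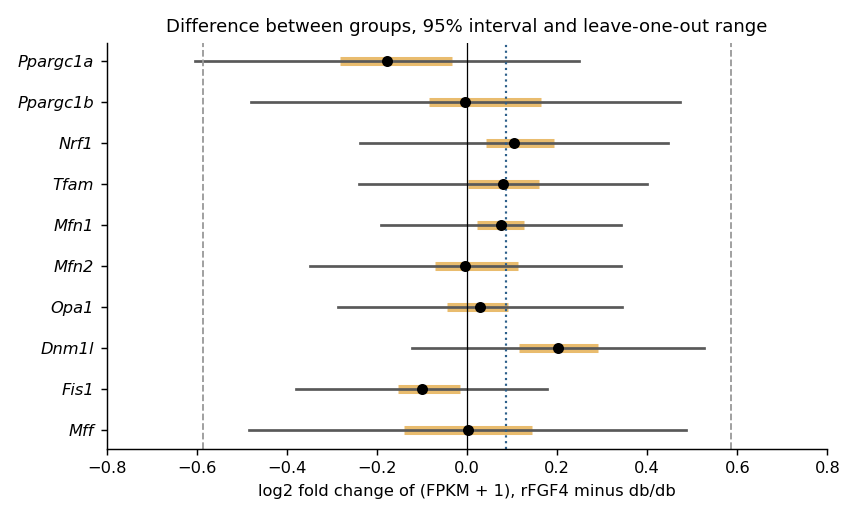
Log2 fold change of (FPKM + 1), rFGF4 minus db/db, for the 10 genes (points), with the 95% interval from limma (thin dark lines) and the range obtained when each mouse was left out in turn (thick orange lines). Dashed grey lines mark a 1.5-fold change of FPKM + 1, the dotted blue line marks the median of all genes tested (0.0855), and every interval includes 0.

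On the per-length scale of FPKM, the mean levels over the 8 mice ran from Fis1 at 51.2 through Mfn2 at 22.9, Mfn1 at 13.6, Dnm1l at 12.7, Tfam at 9.57, Opa1 at 9.37, Ppargc1a at 7.75 and Mff at 4.89 to Ppargc1b at 1.13 and Nrf1 at 0.895. The steps from Fis1 to Mfn2, from Mfn2 to Mfn1 and from Mff to Ppargc1b were larger than the spread between mice, since the ranges did not overlap. The ranges of all other neighbours overlapped, from Mfn1 through Dnm1l, Tfam, Opa1 and Ppargc1a to Mff, and between Ppargc1b and Nrf1. Dnm1l exceeded Mff in every mouse, by 1.83-fold in db/db mouse 4 to 4.20-fold in rFGF4 mouse 2. Fis1 lay at the 94.4th percentile of the genes tested and Nrf1 at the 10.7th.

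The mean log2(FPKM + 1) of the 3 fission genes minus that of the 3 fusion genes described their balance in each mouse. It was 0.48, -0.067, -0.095 and -0.055 in rFGF4 mice 1, 2, 3 and 5, and -0.29, 0.21, -0.055 and 0.39 in db/db mice 2, 3, 4 and 5. rFGF4 mouse 1 and db/db mouse 5 were the most shifted towards fission transcripts and db/db mouse 2 the most towards fusion transcripts, so both groups held mice on either side of 0. The ratio of Dnm1l to Opa1 in FPKM was likewise highest in rFGF4 mouse 1, at 2.01, and db/db mouse 5, at 1.62, and was lowest in db/db mouse 4, at 1.01, and db/db mouse 2, at 1.02.

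Although the groups did not separate, some of the genes varied together from mouse to mouse, as did many genes of the kidney. The group means were removed from log2(FPKM + 1) before the 45 pairs of genes were compared over the 8 mice. At an adjusted p under 0.05, 17 pairs were correlated, 13 positively and 4 negatively, and 7 pairs by Spearman's rho. The p-values came from permutation over 40320 orders, with Benjamini-Hochberg adjustment over the 45 pairs. They are called exact because every order was counted. Removing each group's mean ties its values together, so these p-values are approximate and may be too small. The count of 17 fell to 9 without rFGF4 mouse 2, to 10 without rFGF4 mouse 1, to 11 without db/db mouse 3 or 5, and to 10 with the group means kept. The 17 pairs were those with r of 0.79 or more in size, 37.8% of the 45, beside 16.1% of all pairs of genes tested. The biogenesis and fusion genes other than Nrf1 formed a block: Ppargc1a, Ppargc1b, Tfam, Mfn1, Mfn2 and Opa1 had all their correlations with each other between 0.77 and 0.96. Opa1 and Mfn1 gave r = 0.96 (rho = 0.95, exact permutation p = 0.000471, adjusted p = 0.0115, and r = 0.92 without the 2 mice farthest from the median of Opa1). Ppargc1a and Tfam gave r = 0.90 (rho = 0.93, exact permutation p = 0.00203, adjusted p = 0.0122, and 0.83 without 2 mice).

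Dnm1l went the other way and took part in all 4 negative pairs. With Ppargc1a it gave r = -0.95 (rho = -0.95, exact permutation p = 0.000769, adjusted p = 0.0115), and r was -0.85 without rFGF4 mouse 1 and db/db mouse 5. With Mfn2 it gave r = -0.83 (rho = -0.74, exact permutation p = 0.0106, adjusted p = 0.0342), but only -0.34 without the same 2 mice, so that relation rests on them, and for Tfam the value moved from -0.86 to -0.63. All 17 pairs kept their sign without the 2 mice farthest from the median of one of the genes, and 15 stayed at 0.7 or more in size. Nrf1, Fis1 and Mff were in none of the 17 pairs. Fis1 was inversely related to Ppargc1b by rank, with rho = -0.90 (exact permutation p = 0.00456, adjusted p = 0.0411) and r = -0.72 (exact permutation p = 0.0386, adjusted p = 0.0793, and -0.53 without 2 mice), and its r with the other genes of the block lay between -0.64 and -0.43. Mff and Nrf1 gave r = 0.73 (rho = 0.69, exact permutation p = 0.0427, adjusted p = 0.0836), and the 2 adaptors Fis1 and Mff gave -0.24.

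**Figure D3:**
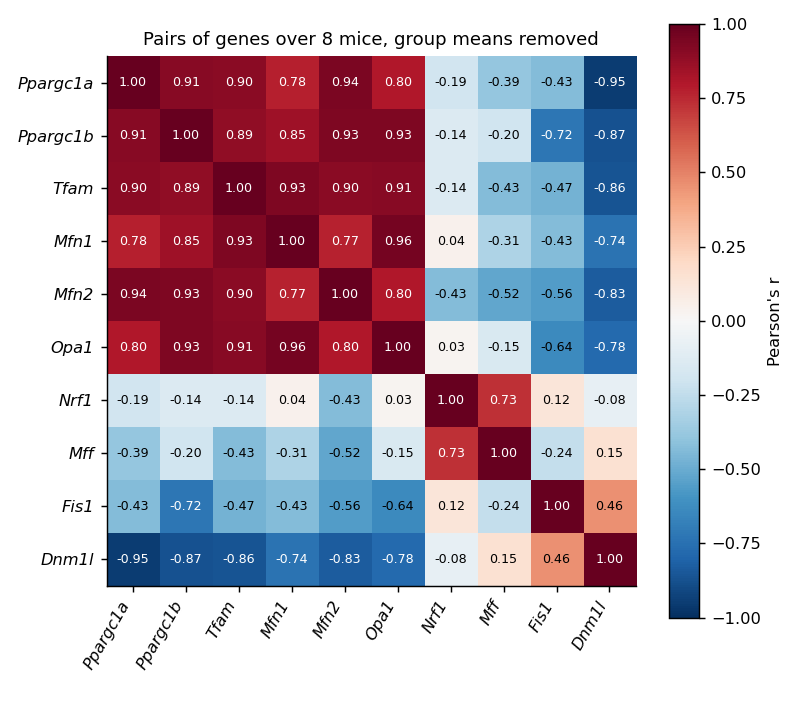
Pearson's r (colour scale from -1 to 1, value in each cell) for the 45 pairs of the 10 genes over 8 mice, on log2(FPKM + 1) with group means removed. The block of 6 biogenesis and fusion genes at the upper left has values of 0.77 to 0.96, and Dnm1l, in the last row, has -0.74 to -0.95 with these genes.

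Many other genes were correlated as closely with Ppargc1a. Of the 15149 other genes tested, 316 (2.09%) had r above 0.9 with Ppargc1a and 1767 had r below -0.9, and ordered by r, Mfn2 ranked 106, Ppargc1b 236, Tfam 296, Opa1 829, Mfn1 943 and Dnm1l 14757. The 5 genes most like Ppargc1a over the 8 mice were Sdr39u1 (r = 0.994), P3h2 (r = 0.987), Aqp1 (r = 0.987), Idh2 (r = 0.986) and Mep1b (r = 0.983). Aqp1 is the water channel of the proximal tubule and thin limb and was among the marker genes, Idh2 is the mitochondrial NADP-dependent isocitrate dehydrogenase, and Mep1b is a subunit of the brush-border protease meprin. Aqp1 was 124, 280, 252 and 427 FPKM in the rFGF4 mice and 526, 277, 450 and 242 FPKM in the db/db mice. Both Aqp1 and Ppargc1a were thus lowest in rFGF4 mouse 1 and highest in db/db mouse 2.

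The proximal tubule and macrophage markers varied widely between the same mice. The 12 proximal tubule markers summed to 1570, 4100, 7630 and 7780 FPKM in the rFGF4 mice and to 9560, 4750, 8640 and 4660 FPKM in the db/db mice, and were lowest in rFGF4 mouse 1 and highest in db/db mouse 2, as was Ppargc1a. The 7 macrophage markers summed to 1270, 458, 127 and 84.6 FPKM in the rFGF4 mice and to 46.8, 328, 59.0 and 1800 FPKM in the db/db mice, and were lowest in db/db mice 2 and 4 and rFGF4 mouse 5, the 3 mice with the lowest Dnm1l. Between groups, 10 of the 12 proximal tubule markers were below 0 in log2 fold change, where 32.9% of all genes tested were, and 7 of the 7 macrophage markers were above 0, where 67.1% of all genes were, with 0 of either list at an unadjusted p under 0.05 in limma. After median-ratio scaling, 11 of the 12 proximal tubule markers were below 0, beside 47.1% of all genes, and without the mitochondrial genome in the sums 8 of the 12, beside 22.2%. The summed markers of the collecting duct (184 FPKM), of the thick ascending limb and distal tubule (970 FPKM) and of red blood cells (120 FPKM) were also lowest in rFGF4 mouse 1, while those of podocytes were highest there, at 90.5 FPKM, and lowest in db/db mouse 2, at 46.0 FPKM. The 6 endothelial markers had other ends, with 50.0 FPKM in rFGF4 mouse 3 and 100 FPKM in db/db mouse 5. All 6 endothelial (median -0.205), 6 collecting duct (median -0.306) and 5 red blood cell markers (median -1.97) were below 0, with 0 called, although under median-ratio scaling 1 endothelial marker was called lower and without the mitochondrial genome in the sums 5 of the 6 collecting duct markers were below 0. Of the 6 tested markers each, 4 of the thick ascending limb and distal tubule (median -0.385) and 4 of lymphoid cells (median -0.163) were below 0, with 0 called, although 1 of the former was called higher without the mitochondrial genome in the sums. The part of these markers in the correlations of the 10 genes was not tested. Without rFGF4 mouse 1 and db/db mouse 5 together, 0 of the 10 genes had an unadjusted p under 0.05, beside 5.68% of all genes.

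**Figure D4:**
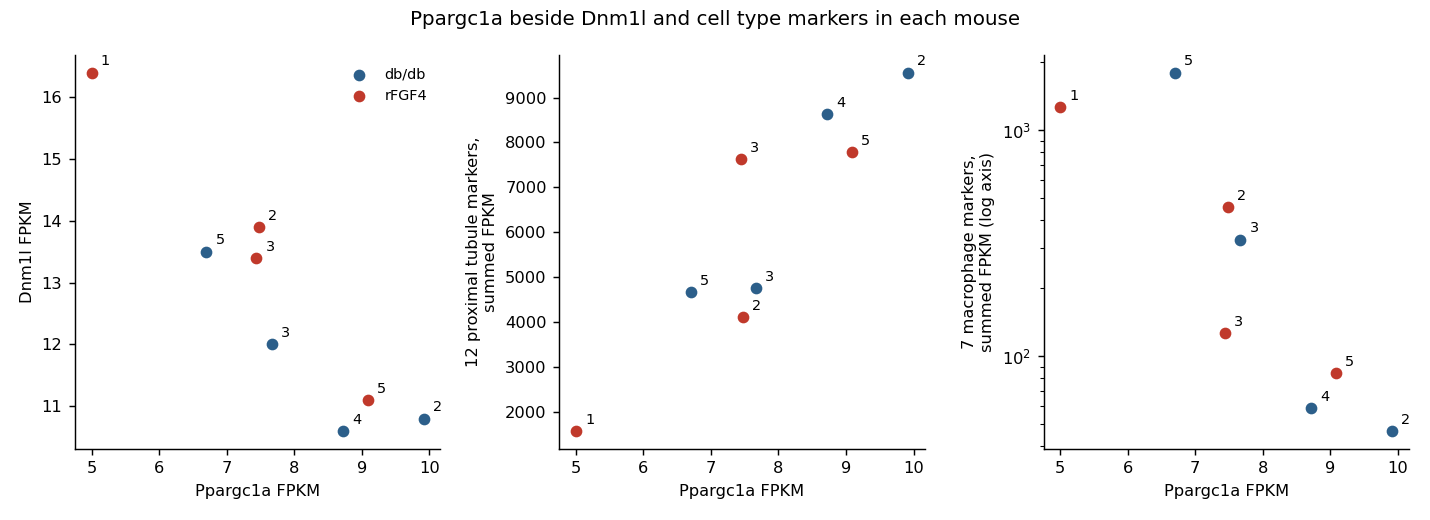
FPKM of Ppargc1a (horizontal axes) in each of 8 mice against the FPKM of Dnm1l (left), the summed FPKM of 12 proximal tubule markers (middle) and the summed FPKM of 7 macrophage markers (right, log axis), with db/db mice in blue, rFGF4 mice in red and mouse numbers beside the points. rFGF4 mouse 1, with Ppargc1a at 5.0, lies at one end of each panel's Ppargc1a axis and db/db mouse 2, with 9.92, at the other.

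Because Tfam, Mfn1 and Opa1 varied together, the 250 bases upstream of their RefSeq start sites (build GRCm38.p6) were searched on both strands for 4 short motifs of factors that work with the coactivators. Of the 10 genes, 9 had such a window, with 15 windows between them. The palindromic core of the NRF1 site, CGCATGCG, was found upstream of Opa1 alone among them and in 1.55% of 32851 windows of this length. The window of Opa1, chr16:29579084-29579333 on the plus strand, is shown 5′ to 3′ with the core in capitals, at positions -58 to -51 from the start.
Opa1: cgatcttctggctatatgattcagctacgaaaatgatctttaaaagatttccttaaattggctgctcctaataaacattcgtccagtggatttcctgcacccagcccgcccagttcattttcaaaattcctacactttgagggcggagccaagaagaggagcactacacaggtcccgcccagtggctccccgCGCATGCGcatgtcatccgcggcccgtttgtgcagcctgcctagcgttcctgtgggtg

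The site of GABP (also called NRF-2), CCGGAAGT, was found upstream of Tfam, Mfn1 and Fis1 and in 2.88% of all windows. The 28 bases around each site are set below one another, 5′ to 3′ on the gene's strand, with the motif in capitals. They come from chr10:71238074-71238101 on the minus strand for Tfam, chr3:32529428-32529455 on the plus strand for Mfn1 and chr5:136953247-136953274 on the plus strand for Fis1. The Tfam stretch lies inside the gene as annotated in GENCODE M21, which starts farther upstream than the RefSeq start used here.
Tfam: ctgccgcggaCCGGAAGTccgggcttcc
Mfn1: atccgaagcgCCGGAAGTagccgcccct
Fis1: gaggcaccacCCGGAAGTtcaggcttcc
The motif lay at positions -47 to -40 in Tfam, -44 to -37 in Mfn1 and -18 to -11 in Fis1. Fis1 shared the letters but was not positively correlated with the other 2 genes: its r was -0.47 with Tfam and -0.43 with Mfn1. The cyclic AMP response element TGACGTCA (1.55% of windows) and the estrogen-related receptor site CAAGGTCA (1.33%) were not found in the windows of these genes. These matches are descriptions of the letters and are no measure of binding.

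The wider pathway was read from 6 lists of nuclear genes that work with the 10: partners in biogenesis, the mitochondrial DNA machinery, fission adaptors, fusion and cristae proteins, mitophagy and mitochondrial transport. Of 83 such genes in the table, 79 were tested, and 4 were higher and 2 lower in rFGF4 kidneys at an unadjusted p under 0.05, 7.59% of the genes against 4.62% of all genes tested. None passed adjustment (adjusted p = 0.918 for all 6, limma). The groups did not overlap in 7 of the 79, beside 3.33% of all genes tested. Their median log2 fold change was 0.0844, beside 0.0855 for all genes. The direction of the calls depended on scaling: after median-ratio scaling of the libraries, which moved the median of all genes to 0.0127, 1 partner was higher and 4 were lower, beside 2.88% and 2.01% of all genes. When the mitochondrial genome was left out of the sums, 8 were higher and 1 was lower, beside 6.88% and 0.574%, and with array weights 11 were higher and 3 lower, beside 9.04% and 2.95%.

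Among 17 biogenesis partners, 1 was higher and 1 lower, beside 3.56% and 1.06% of all genes. With 1 mouse left out, 0 to 3 were higher and 1 lower, beside 2.03% to 7.28% and 0.779% to 2.16% of all genes. The 3 were reached without rFGF4 mouse 5 or db/db mouse 5, and the 0 without rFGF4 mouse 3 or db/db mouse 3. With array weights 4 were higher, beside 9.04%, and without the mitochondrial genome in the sums 3, beside 6.88%. Perm1, a regulator that PGC-1α and the estrogen-related receptors induce in muscle, was lower with rFGF4. It was 0.897, 0.855, 0.626 and 1.27 FPKM in the rFGF4 mice and 2.10, 1.5, 2.31 and 1.47 FPKM in the db/db mice, and the groups did not overlap. The log2 fold change was -0.57 (95% interval -0.927 to -0.216, limma unadjusted p = 0.00579, exact permutation p = 0.0286, the smallest possible), and 16 of 17 alternative settings kept the unadjusted p under 0.05. At this low level the size depends on the pseudocount: the means were 0.911 ± 0.265 and 1.84 ± 0.426 FPKM (SD, n = 4 each), and the log2 fold change was -0.95 with a pseudocount of 0.1. The markers of skeletal muscle, which also expresses Perm1, summed to at most 2.17 FPKM in any library, and its fast myosin heavy chain gene Myh4 was at 0 in all of them.

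Ppara, the nuclear receptor that activates fatty acid oxidation, had the highest fold change of the named partners. It was 3.27, 7.86, 15.6 and 6.88 FPKM in the rFGF4 mice and 3.26, 0.991, 4.63 and 2.19 FPKM in the db/db mice. rFGF4 mouse 1 fell within the db/db range, while the other 3 rFGF4 mice lay above it. The log2 fold change was 1.26 (95% interval 0.232 to 2.28, limma unadjusted p = 0.022, exact permutation p = 0.0571). Of 17 alternatives, 15 kept an unadjusted p under 0.05 in limma, and it was 0.0534 without rFGF4 mouse 3 and 0.0604 without db/db mouse 3.

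None of the 17 genes for replication and transcription of mitochondrial DNA was called, beside 4.62% of all genes, although 1 was called lower after median-ratio scaling and 1 with array weights. The smallest p belonged to Tfb2m, the transcription factor that melts mitochondrial promoters with the mitochondrial RNA polymerase. It was 10.9 to 12.3 FPKM in the rFGF4 mice and 9.69 to 10.7 FPKM in the db/db mice, which did not overlap, with a log2 fold change of 0.17 (limma unadjusted p = 0.121). This was 0.078 after median-ratio scaling (limma unadjusted p = 0.552) and 0.26 without the mitochondrial genome in the sums (limma unadjusted p = 0.0371). The 13 protein-coding genes of mitochondrial DNA itself were all below 0, beside 32.9% of all genes, with a median of -0.553 (-0.65 after median-ratio scaling and -0.453 without the mitochondrial genome in the sums), and 1 was called lower, beside 1.06% of all genes: mt-Nd3, a complex I subunit. It was 1270, 1730, 1840 and 2670 FPKM in the rFGF4 mice and 3210, 3730, 3020 and 2150 FPKM in the db/db mice (log2 fold change -0.71, limma unadjusted p = 0.0433), and 6 of 17 alternatives kept that call, of the leave-outs those without rFGF4 mouse 5 or db/db mouse 5. With array weights 7 of the 13 were called lower (median -0.646), beside 2.95% of all genes, and the median was -0.363 without rFGF4 mouse 1 and -0.796 without rFGF4 mouse 5. The 13 genes together were lowest in rFGF4 mouse 1, at 71500 FPKM, and highest in db/db mouse 2, at 207000 FPKM, the same ends as for Ppargc1a.

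Among 11 fission partners, 1 was higher, beside 3.56% of all genes, whereas after median-ratio scaling, without rFGF4 mouse 1 and in mice 2, 3 and 5 alone 0 were higher and 1 was lower. In the other direction, 3 were higher with array weights and 2 without rFGF4 mouse 5, with 0 lower. The shares of all genes called higher there were 9.04% and 7.28%. Mief1, a receptor for DRP1 on the outer membrane, was 3.34, 3.15, 3.19 and 2.80 FPKM in the rFGF4 mice and 2.08, 2.16, 2.60 and 2.75 FPKM in the db/db mice. The groups were close, with rFGF4 mouse 5 just above db/db mouse 5 (log2 fold change 0.28, limma unadjusted p = 0.0452), the call held under 8 of 17 alternatives, of the leave-outs those without rFGF4 mouse 5 or db/db mouse 5, and an exon of AC140267.1 overlaps it on the same strand. Among 19 fusion and cristae partners, 1 was lower, beside 1.06% of all genes. Micos10, a core subunit of the complex that forms cristae junctions, was 26.9, 25.3, 26.3 and 26.9 FPKM in the rFGF4 mice and 28.9, 37.1, 32.3 and 36.1 FPKM in the db/db mice. The rFGF4 mice were tightly grouped below all db/db mice (log2 fold change -0.33, 95% interval -0.586 to -0.079, limma unadjusted p = 0.0162), and 15 of 17 alternatives kept the call.

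Of 10 mitophagy genes, 2 were higher, beside 3.56% of all genes. Sqstm1, encoding the autophagy receptor p62, was 152, 159, 147 and 124 FPKM in the rFGF4 mice and 102, 117, 124 and 116 FPKM in the db/db mice (log2 fold change 0.34, limma unadjusted p = 0.0279). Bcl2l13, an outer-membrane mitophagy receptor, was 4.66, 5.29, 5.49 and 4.27 FPKM in the rFGF4 mice and 3.87, 3.50, 3.90 and 4.01 FPKM in the db/db mice (log2 fold change 0.29, limma unadjusted p = 0.0344). Neither gene's groups overlapped, although rFGF4 mouse 5 and db/db mouse 4 both rounded to 124 FPKM for Sqstm1, and neither call held after median-ratio scaling. With 1 mouse left out, the unadjusted p in limma lay between 0.0117 and 0.0858 for Sqstm1, above 0.05 without rFGF4 mouse 2 or 3 or db/db mouse 2 or 5, and between 0.0225 and 0.0947 for Bcl2l13, above 0.05 without rFGF4 mouse 2 or 3 or db/db mouse 2, 3 or 4. Exons of Sqstm1 overlap Mrnip and those of Bcl2l13 overlap Bid on the other strand. All 5 transport genes were above 0, as were 67.1% of all genes tested, with a median of 0.198. After median-ratio scaling, 4 of the 5 were above 0 (median 0.127), beside 52.9% and a median of 0.0127 for all genes. None of the 5 was called, beside 4.62% of all genes. Without rFGF4 mouse 1 and in mice 2, 3 and 5 alone 2 were called higher, beside 2.91% and 2.73%. Other alternatives gave 0 or 1. With the replicate block the 1 called, beside 1.76%, was not Rhot1 (limma unadjusted p = 0.124). Rhot1, which links mitochondria to microtubule motors, had the smallest p, at 6.77 to 7.87 FPKM in the rFGF4 mice and 5.03 to 6.58 FPKM in the db/db mice (log2 fold change 0.26, limma unadjusted p = 0.0524), and 8 of 17 alternatives gave a p under 0.05.

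**Figure D5:**
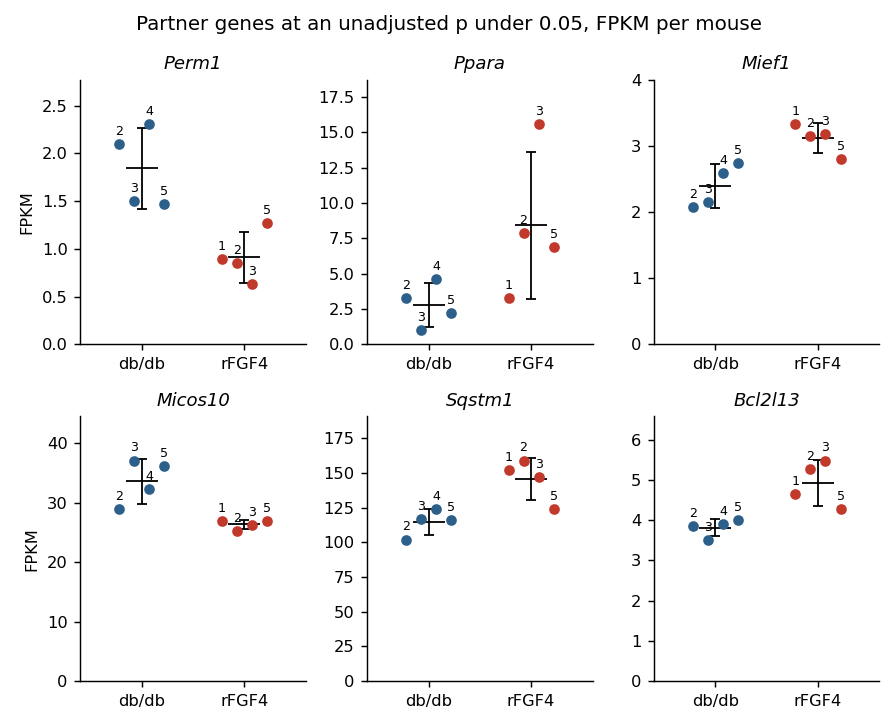
FPKM (vertical axes from 0) of the 6 nuclear partner genes at an unadjusted p under 0.05, in each of 4 db/db mice (blue) and 4 rFGF4 mice (red), with mouse numbers and bars for the mean and SD. Perm1 and Micos10 are lower and Mief1, Sqstm1 and Bcl2l13 higher in all rFGF4 mice, and the groups overlap in Ppara, at 3.27 in rFGF4 mouse 1 against up to 4.63 in db/db mice.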

How the data were processed

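Poly(A) RNA from kidney was sequenced in paired ends, 1 library for each of 8 mice (4 rFGF4, 4 db/db), grouped by the sample labels. The FPKM values were deposited by the authors as 1 table, made by assembly of mapped reads in StringTie and merging with gffcompare. The submitters' processing notes name HISAT2 2.0, StringTie 1.3.0 and Bowtie 0.12.2 without their roles. A value of 0.0001 or less was taken as 0. The table holds no counts, so depth, counting intervals and edgeR, which the study's methods name, could not be used. The authors' own fold changes, p-values and q-values were not used. Columns matching no sample numbered 0, so none is left out.

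A gene was tested when 4 or more libraries had an FPKM of 0.5 or above. The two-sided limma test (limma 3.58.1, R 4.3.3, prior variance trended on mean expression) was run on log2(FPKM + 1), with Benjamini-Hochberg adjustment over all 15150 genes. The study's threshold (unadjusted p under 0.05 and a 1.5-fold change) was counted for all genes. Single genes were also tested by exact permutation of the mice (70 splits, scipy 1.17.1 in Python 3.11.15). Pairs of genes were tested by permutation over all orders of the mice, which is approximate because group means had been removed. In simulated data of 15150 genes for this comparison, of 100 genes given a log2 change of 2 and 100 given -1, 79 and 48 passed adjustment. Figures were drawn with matplotlib 3.10.9.

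The 10 genes, the lists and the rules were chosen with earlier results of these data known. The text names all 10 genes, the partners at an unadjusted p under 0.05 or, in a list without one, that with the smallest p, and the 5 genes most correlated with Ppargc1a. Gene positions and overlaps came from GENCODE M21 (GRCm38), where 99.5% of identifiers were found, and the notes name build mm8. The alternatives were another pseudocount, other filters, other scalings, array weights, a block for shared mouse numbers, group means kept and each mouse left out.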

Additional observations from a re-analysis of the deposited data

Results flagged for a closer look

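Among 38 groups of 4 values that were checked for a single distant sample, 1 was marked, where chance alone would give about 1.9. It was Mfn2 in rFGF4 mouse 1, at 17.6 FPKM against 24.4 to 25.3 in the other 3 rFGF4 mice, and the gap to its nearest neighbour made up 0.896 of the range of the group. The same library had the highest Dnm1l (16.4 FPKM) and the lowest sum of proximal tubule markers (1570 FPKM). Without it, the log2 fold change of Mfn2 was 0.11 in place of -0.0040, with an unadjusted p of 0.365 in limma.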

How the results depend on the processing

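The number of the 10 genes at an unadjusted p under 0.05 was 0 in limma under all 17 alternatives. The share of all genes ran from 2.61% with the replicate block to 12% with array weights. Directions near 0 turned. Median-ratio scaling gave -0.0074 for Tfam, -0.058 for Opa1, -0.015 for Mfn1 and -0.076 for Mff, and sums without the mitochondrial genome gave 0.041 for Ppargc1b and 0.091 for Mfn2. Array weights gave -0.016 for Nrf1, -0.022 for Opa1, 0.019 for Mfn2 and -0.071 for Mff. Leaving out 1 mouse gave -0.085 to 0.16 for Ppargc1b, -0.072 to 0.11 for Mfn2, -0.14 to 0.14 for Mff and -0.045 to 0.0899 for Opa1. Without rFGF4 mouse 1 and db/db mouse 5 together, chosen after seeing the data, Ppargc1b was 0.095 and Mfn2 0.046. Ppargc1a (-0.28 to -0.0045), Dnm1l (0.073 to 0.295) and Fis1 (-0.196 to -0.0029) kept their direction but not their size: Ppargc1a was nearest 0 in mice 2, 3 and 5 alone, Fis1 without the mitochondrial genome in the sums (-0.016 without rFGF4 mouse 3) and Dnm1l in mice 2, 3 and 5 alone. With 1 mouse left out, Nrf1 (0.043 to 0.193), Tfam (0.0018 to 0.159) and Mfn1 (0.0215 to 0.126) also kept their direction but not their size. Nrf1 was 0.20 with a pseudocount of 0.1 and was not tested at a mean FPKM of 1 or more.

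Same-numbered mice (2, 3 and 5) did not deviate together (r = -0.229, -0.155 and -0.393), so the numbers were not taken as pairs. With the replicate block, 0 of the 10 genes were called, beside 2.61% of all genes tested, and 263 genes passed the study's threshold. Ppargc1b was 0.24 and Mfn2 0.13, as in these 6 mice without the block (added later), where 0 were called beside 4.17%.

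The study's threshold was passed by 231 genes (165 higher, 66 lower), by 182 after median-ratio scaling (106 higher, 76 lower), by 321 without the mitochondrial genome (279 higher, 42 lower), by 348 with a pseudocount of 0.1, by 490 with array weights and by 187 to 575 with 1 mouse left out (575 without rFGF4 mouse 5, 432 without db/db mouse 5). The correlated pairs numbered 17, 10 with group means kept, 15 after median-ratio scaling (added later) and 9 to 15 with 1 mouse left out (9 without rFGF4 mouse 2, 10 without rFGF4 mouse 1, 11 without db/db mouse 3 or 5). The partners at an unadjusted p under 0.05 numbered 0 to 7 higher and 2 to 3 lower with 1 mouse left out. Of all genes, 2.03% to 7.28% were called higher and 0.779% to 2.16% lower in these fits. The cause was not tested. Depth is unknown, so counting error could not be given, and tests that need counts (DESeq2, edgeR) were not run.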
